A study of Mus musculus with 40 samples.

Results

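Translation per mRNA in unstressed cytosol was read here as the ratio of ribosome footprints to mRNA, gene by gene, in mouse embryonic fibroblasts of genotype GADD34-/-. A footprint is the stretch of mRNA that a ribosome shields from nuclease, so footprints divided by mRNA give the ribosome load of an average copy of that mRNA. The members were the 2725 genes, of 22417 in the deposited table, that had a value in all 4 libraries of the untreated cytosol: 2 footprint libraries and 2 mRNA libraries. The ratio of each gene is given on a log2 scale against the median member, so a gene at 0 has the ratio of that member and each unit is a doubling. The rule used no ratio, but it needed a value in every library, and this bears on which ratios could be seen.

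All 40 samples of the study, untreated ones included, came from cells labelled GADD34-/-, which lack Ppp1r15a, and no wild-type sample was analysed here. GADD34 guides the phosphatase that takes phosphate off the initiation factor eIF2alpha, the switch that slows initiation under stress. The 4 libraries described came from cells without thapsigargin, grown in DMEM with serum and given cycloheximide, which halts elongation, shortly before lysis. Digitonin opened the plasma membrane and released the cytosol, and dodecyl maltoside then extracted what remained, the ER fraction. Micrococcal nuclease made the footprints, and the mRNA samples were cleared of ribosomal RNA (RiboMinus) and made into TruSeq libraries. The other libraries used came from the ER fraction of untreated cells and from cytosol after 0.5, 1, 2 or 4 h of thapsigargin at 1 uM, which empties the calcium store of the ER. Each group has samples numbered 1 and 2. Nothing in the labels tells whether a number stands for its own culture, so p-values measure the spread between these samples only. Where the line came from, and whether it is a clone, is not given either.

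How many ribosomes an mRNA carries depends mainly on how often initiation succeeds. Some mRNA classes have known means of control. Messages with a terminal oligopyrimidine tract, a run of C and T at the very start of the transcript, encode ribosomal proteins and elongation factors and answer to mTOR. Upstream reading frames hold ribosomes away from the main frame of stress factors such as Atf4 and Ddit3. An iron-responsive hairpin blocks ferritin mRNA when iron is scarce, and mRNAs of secreted and membrane proteins are translated at the ER, outside the cytosol fraction.

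Depth limited the mRNA side. From the steps between the RPKM values, reads scaled to coding length and library size, the reads behind each value were recovered. The footprint libraries held 272337 and 5388954 reads on genes and the mRNA libraries 258549 and 48217. The median member rested on 31 and 515 footprint reads and on 13 and 3 mRNA reads. The 10 largest genes held 9.14% and 10.8% of the RPKM in footprints but 65.8% and 52.5% in mRNA, led by loci such as C330021F23Rik and Gm5148, which had no footprint value and are no members. Across members the Spearman correlation was 0.93 between the footprint libraries and 0.72 between the mRNA libraries, as a description, since genes share the libraries and are not replicates. Ppp1r15a had a value in 0 of the 4 libraries. Macrophage, epithelial and endothelial marker lists gave 0 members, and 0 of their genes had a value in both footprint libraries. Of 12 fibroblast markers 4 were members: Vim, S100a4, Col1a1 and Col1a2. Of 9 muscle and neural markers 2 were members, Tubb3 and Nes, and 3 had a value in both footprint libraries.

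Ratios spread widely. The 25th and 75th percentiles of the members stood at 0.544 and 1.82 times the ratio of the median member (log2 -0.88 and 0.86), and the 5th and 95th at 0.199 and 4.36 times it. The full range ran from -8.11 to 3.81 on the log2 scale, longer on the low side. On the deposited scale the median member had 1.71 times as many footprint as mRNA RPKM, a value that carries the scaling of the libraries and was removed. With footprints and mRNA of the same number taken as a pair, 1862 of 2725 members lay on the same side of the median member in both pairs, and the Pearson correlation of the 2 ratios across genes was 0.54.

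A limma fit over all 20 cytosol libraries tested each ratio against that of the median member. It called 82 members above it, which is 3.01% of those tested, and 79 below it, or 2.90%, at a Benjamini-Hochberg adjusted p under 0.05, together 5.91%. All 161 called members lay on 1 side in each of the 4 ways of dividing a footprint library by an mRNA library. The called ratios come from those same 4 libraries, so this adds no separate support. The fit shares 1 spread per gene over untreated and treated libraries. Untreated mRNA replicate 2 held 48217 reads, and the treated cytosol mRNA libraries numbered 2 held 110748 to 208428. The shared spread can thus be smaller than that between the untreated libraries. With the 4 untreated libraries as the whole fit, limma called 0 above and 18 below, and 24 of the 161 calls were made again without any 1 of the 4 libraries. Without footprints replicate 1 the fit called 4 above and 39 below, without footprints replicate 2 it called 3 and 26, without mRNA replicate 1 27 and 28, and without mRNA replicate 2 23 and 44.

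**Figure D1:**
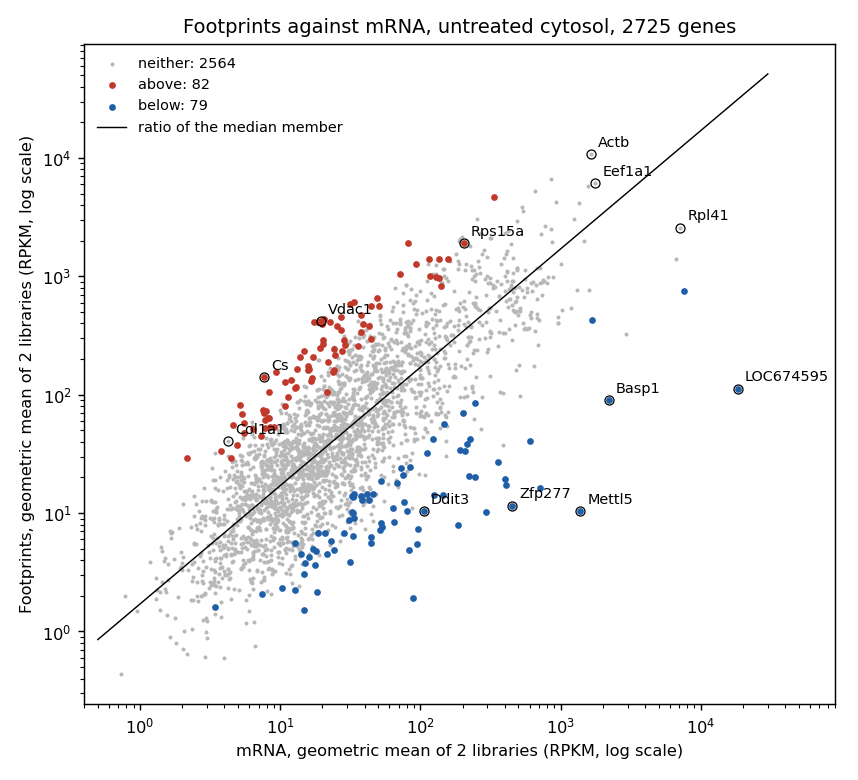
Footprints (vertical) against mRNA (horizontal) of 2725 genes in untreated cytosol, each the geometric mean of 2 libraries in RPKM on log axes. The line marks the ratio of the median member. The 82 red points lie above it and the 79 blue points below it at a limma adjusted p under 0.05, and LOC674595 and Mettl5 lie farthest below.

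The members with the highest ratios encode housekeeping enzymes, cytoskeletal partners and a cell cycle kinase. Vdac1 (NM_011694), the main channel of the outer mitochondrial membrane, had 369 and 476 RPKM in footprints and 14.3 and 26.3 RPKM in mRNA. Both footprint values stood far above both mRNA values, on a scale where the median member had 1.71 times as many footprint as mRNA RPKM. Its log2 ratio was 3.66 (SE 0.58, limma adjusted p = 0.0021), or 12.7 times the ratio of the median member, and its pairs gave 3.65 and 3.66. Cs (NM_026444), citrate synthase, had 113 and 176 RPKM in footprints and 7.27 and 8.03 in mRNA, again without overlap. Its log2 ratio was 3.44 (SE 0.51, adjusted p = 0.001). Vdac1 and Cs were the 2 members above the median that were called again without any 1 library, with ratios of 3.39 to 3.93 and 3.03 to 3.81.

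Psmb3, a beta subunit of the proteasome, had the highest ratio of all at 3.81 (SE 0.87, limma adjusted p = 0.029). It had 425 and 401 RPKM in footprints and 16.4 and 18.1 in mRNA, the latter from 5 reads and 1 read. Tagln2, an actin-binding transgelin, had 1399 and 2639 RPKM in footprints and 27.1 and 243 in mRNA, a log2 ratio of 3.79 (adjusted p = 0.038). Its mRNA libraries differed from each other about as much as footprints differed from the higher of them, and no footprint value fell among the mRNA values. Cdk1, the kinase that drives mitosis, had 360.2 and 464 RPKM in footprints and 27.3 and 12.5 in mRNA, a log2 ratio of 3.70 (adjusted p = 0.014). Also among the highest were 2700060E02Rik at 3.65, the chloride channel protein Clic4 at 3.55, the LIM domain protein Fhl1 at 3.43 and the small heat shock protein Cryab at 3.41. 2700060E02Rik overlaps Nid2 in the RefSeq gene table, and Cryab overlaps Hspb2 and 2310030G06Rik.

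The call of Psmb3 was lost without any of the 4 libraries, that of Clic4 without footprints replicate 2 (adjusted p = 0.053), and those of Tagln2, Cdk1, 2700060E02Rik, Fhl1 and Cryab each without 3 of the 4 in turn. Without 1 library the log2 ratio of Tagln2 ran from 2.40 to 5.21, that of Cdk1 from 2.96 to 4.44 and that of 2700060E02Rik from 2.20 to 5.06. Few mRNA reads stood behind high ratios. In mRNA replicate 2, 35 of the 82 members above the median had 1 read, against 616 of 2725 members in all and 1 of the 79 below it. The part of this shallow end of the mRNA libraries in the calls was not tested. The same end also hides genes: of 6732 genes with a value in both footprint libraries, 2306 lacked a value in 1 mRNA library and 1701 in both, so their ratios were not seen.

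Among the members, the lowest ratios were farther from the median than the highest. Of 3071 genes with a value in both mRNA libraries, 201 lacked one in 1 footprint library and 145 in both. The need for a value thus left out fewer genes for lack of footprints than for lack of mRNA. Its part in the longer low end was not tested. LOC674595 (XM_975798) had 225 and 56.5 RPKM in footprints and 11905 and 28093 RPKM in mRNA, a log2 ratio of -8.11 (SE 1.16, limma adjusted p = 0.00081). It was also among the 10 largest genes of both mRNA libraries. Mettl5 (NM_029280), a methyltransferase that modifies ribosomal RNA, had 15.3 and 7.0 RPKM in footprints and 2054 and 925 in mRNA. Its log2 ratio was -7.83 (SE 0.67, adjusted p = 0.00013), or 0.0044 times the ratio of the median member. In LOC674595 and Mettl5 every mRNA value exceeded every footprint value.

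Zfp277, a zinc finger protein, had 12.1 and 11.1 RPKM in footprints and 599.9 and 339 in mRNA, a log2 ratio of -6.05 (SE 0.59, limma adjusted p = 0.00012). Basp1, a membrane-attached signalling protein, had 87.8 and 92.3 RPKM in footprints and 1253 and 3883 in mRNA, a log2 ratio of -5.39 (SE 1.10, adjusted p = 0.012). Their footprint libraries nearly coincided and lay far under both mRNA libraries. In footprints replicate 1, 49 of the 79 members below the median had at most 10 reads, against 470 of 2725 members in all. Ntan1, an amidase of the N-degron pathway, stood at -5.33, the kinase Vrk2 at -5.30, the hydrolase-like Serhl at -5.61, the acetyltransferase Acat3 at -5.13, 1110001A16Rik at -6.24 and Cdsn, an adhesion protein of the epidermis, at -6.31. Of these 10, Basp1 was lost without either footprint library or without mRNA replicate 2, with an adjusted p of up to 0.087. Cdsn was lost without footprints replicate 2 (adjusted p = 0.12), and its ratio ran from -8.09 to -4.56. The other 8 passed without any 1 library.

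Genes with low ratios often overlapped another gene. Among members matched to the RefSeq gene table, 42 of 77 below the median (54.5%) overlapped another protein-coding gene, against 12 of 74 above it (16.2%) and 505 of 2388 that were neither (21.1%). Of the 10 lowest, 6 did: Mettl5 overlaps Ssb, 1110001A16Rik overlaps Cebpz, Serhl overlaps Rrp7a, Ntan1 overlaps Pdxdc1, Vrk2 overlaps Fancl and Acat3 overlaps Tcp1. The mRNA kit named in the labels does not mark strand, and the labels do not say whether counting used it. Overlap was taken between whole gene spans on either strand, introns included. Whether mRNA reads of such neighbours entered the coding counts is therefore not known. Among the 1980 members that overlap no other protein-coding gene, a fit of these alone called 23 above and 25 below. Zfp277, which overlaps no coding gene in that table, was called there too at -6.12. The part of overlap in the other low ratios was not tested.

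**Figure D2:**
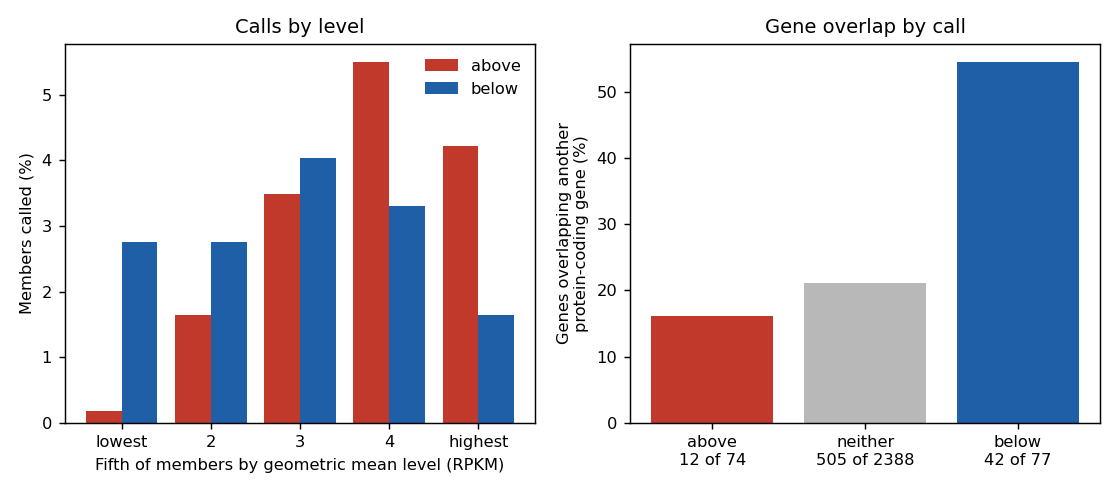
Left, share of members called above (red) and below (blue) the median in each of 5 equal classes of members by level, the geometric mean of the 4 libraries in RPKM. Right, share of matched genes that overlap another protein-coding gene, by call, with counts under the bars: 12 of 74 above, 505 of 2388 neither and 42 of 77 below.

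Among the members, the median ratio rose with level. In 5 equal classes from the lowest to the highest geometric mean RPKM, the median log2 ratio was -0.68, -0.12, -0.01, 0.40 and 0.52. The lowest class had 1 member called above and 15 below, and the highest 23 above and 9 below. Level includes the footprints themselves, so the 2 quantities share libraries. In 5 classes by coding length the medians were 0.10, 0.18, 0.03, -0.03 and -0.23, from genes of 78 to 711 nt to genes of 2949 to 20625 nt. Across genes the Spearman correlation of the ratio was 0.30 with level and -0.10 with coding length.

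Ribosomal proteins, the largest class with a terminal oligopyrimidine tract, lay close to the median member and varied widely among themselves. Of 79 listed, 78 were members, with a median log2 ratio of 0.23, and 1 was called above, 0 below and 77 neither, against 3.01% above and 2.90% below over all members. Rps15a, a protein of the small subunit, was the one called. It had 2305 and 1576 RPKM in footprints and 145 and 285 in mRNA, a log2 ratio of 2.46 (SE 0.51, limma adjusted p = 0.013). Its processed copy Rps15a-ps5 gave 1798 and 1079 against 109 and 228 RPKM, a ratio of 2.37, so the split of reads between the copies is uncertain. The call of Rps15a was lost without either footprint library or mRNA replicate 1, with an adjusted p of up to 0.1. The median of the list was 0.40 in pair 1 and -0.05 in pair 2. It ran from -0.30 without mRNA replicate 1 to 0.72 without mRNA replicate 2, and was -0.09 without footprints replicate 2. Over the same 78 genes it was also -0.30 against the median of genes whose mean reached 50 RPKM. The mRNA of these genes was 2.86 times as high in replicate 2 as in replicate 1, by the median gene, against 1.38 times over all 3071 genes.

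Rpl34 had the highest ratio of the list at 2.81 and Rps21 the next at 2.68, with limma adjusted p of 0.1 and 0.055. At the other end Rpl41, whose coding region is the shortest of all members at 78 nt, had 3277 and 2028 RPKM in footprints and 3845 and 13078 in mRNA. The mRNA values were the higher in each library, and the log2 ratio was -2.23 (SE 0.82, adjusted p = 0.11). Rps26 stood at -1.91. Rplp0, a stalk protein of the large subunit, had 424 and 777 RPKM in footprints and 202 and 998 in mRNA, a ratio of -0.42 that crosses between the libraries.

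The start of the transcript is shown for 8 ribosomal protein genes, the 4 highest and 4 lowest in ratio among those whose annotated start holds the tract. Each is read 5′ to 3′ on its own strand from 15 bases before the start to 15 bases from it on, from RefSeq's table of promoters for GRCm38.p6, with the run of C and T from the start on in capitals.
Rps21 (chr2:180257364-180257393, plus strand): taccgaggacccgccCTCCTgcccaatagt
Rps15a (chr7:118116133-118116162, minus strand): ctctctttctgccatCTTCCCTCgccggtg
Rpl38 (chr11:114668565-114668594, plus strand): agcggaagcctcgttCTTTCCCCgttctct
Rplp2 (chr7:141447636-141447665, plus strand): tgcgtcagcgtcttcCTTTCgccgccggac
Rpl15 (chr14:18270972-18271001, minus strand): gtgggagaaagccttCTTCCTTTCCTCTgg
Rps27 (chr3:90213634-90213663, minus strand): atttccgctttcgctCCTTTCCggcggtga
Fau (chr19:6057932-6057961, plus strand): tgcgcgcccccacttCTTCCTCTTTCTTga
Rpl14 (chr9:120571502-120571531, plus strand): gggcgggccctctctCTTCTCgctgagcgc

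Their log2 ratios were 2.68 for Rps21, 2.46 for Rps15a, 2.34 for Rpl38 and 1.78 for Rplp2, and -0.07 for Rpl15, -0.46 for Rps27, -1.02 for Fau and -1.06 for Rpl14. In the same order, the tracts shown were 5, 8, 8 and 5 bases long in the 4 highest and 13, 7, 13 and 6 in the 4 lowest. These genes were picked by their ratio, so no relation of tract length to ratio can be read from them. The tract searched was a C at the annotated start followed by at least 4 bases that are C or T, on the gene's strand. It is found in 2.51% of 32851 promoters and in 14 of 58 matched ribosomal protein members (24.1%). Median ratios were 0.63 in these 14 and -0.06 in the other 44 ribosomal proteins, but -0.07 in the 64 members of any kind with the tract and -0.01 in the 2027 without. Annotated starts can lie away from the start used in these cells.

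Other messages listed with the tract include the elongation factors. Eef1a1, which brings tRNA to the ribosome, had 5266 and 7229 RPKM in footprints and 1162 and 2668 in mRNA, a log2 ratio of 1.04 (SE 0.60, limma adjusted p = 0.32). Eef2, which drives translocation, stood at 0.99 (SE 1.07, adjusted p = 0.61) and Tpt1 at -0.33 (SE 0.63, adjusted p = 0.80). Pabpc1, the poly(A) binding protein, had 183 and 162 RPKM in footprints but 22.3 and 562 in mRNA, so its mRNA libraries lay on either side of its footprints and its ratio of -0.15 had an SE of 1.85. Of the 17 messages listed with this tract outside the ribosome, 1 was above, 0 were below and 16 were neither, with a median of 0.38 that turned to -0.19 without mRNA replicate 1. Against genes whose mean reached 50 RPKM it was -0.15. Eif3e, a subunit of initiation factor eIF3, was the one above, at 1.95 (adjusted p = 0.043), a call lost without any of the 4 libraries.

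Initiation factors and tRNA synthetases had medians above the median member. Of 32 initiation factors 25 had a positive ratio, with a median of 0.70, and 1 was called above, 0 below and 31 neither. Eif3k, another eIF3 subunit, was that call at 2.35 (limma adjusted p = 0.029), and Eif4a1, the helicase that opens the leader, stood at 1.87 (adjusted p = 0.057). Eif5 was lowest at -1.59, and Eif4ebp1, the mTOR-controlled inhibitor of cap binding, stood at -1.13. Of 19 synthetases 18 were positive, with a median of 0.50, 2 above, 0 below and 17 neither. Iars, which charges isoleucine tRNA, had 72.7 and 75.7 RPKM in footprints and 6.42 and 8.86 in mRNA, a log2 ratio of 2.53 (adjusted p = 0.029), and Lars, its leucine counterpart, stood at 2.32 (adjusted p = 0.045). The calls of Iars, Lars and Eif3k were lost without 3 or 4 of the 4 libraries in turn, and without 1 library the ratio of Lars ran from 1.32 to 3.34. Over the alternatives tried the median of the initiation factors ran from 0.44 to 0.92 and that of the synthetases from 0.10 to 0.92. Both were lowest over members whose mean reached 50 RPKM. Counts of these lists and those that follow stand against 3.01% above and 2.90% below over all members.

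**Figure D3:**
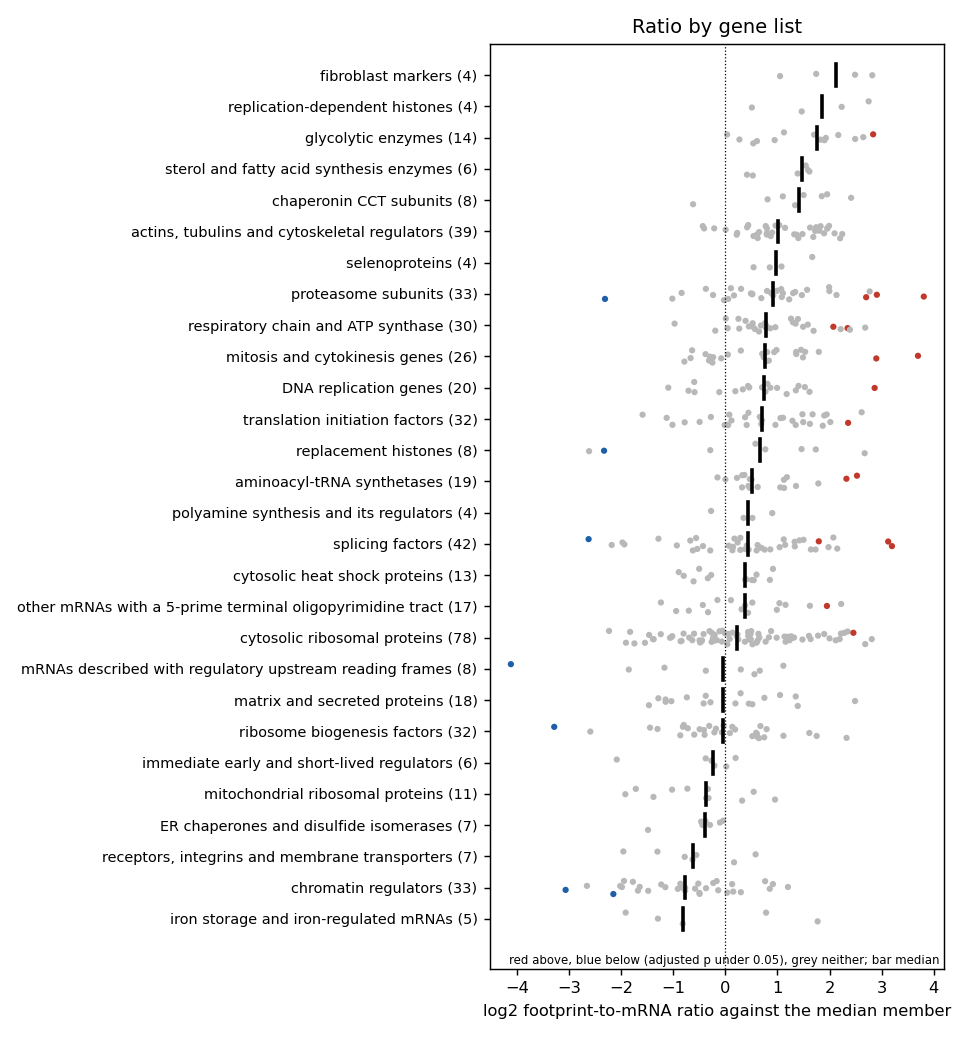
Log2 footprint-to-mRNA ratio against the median member (horizontal) of the members of each gene list with at least 4 of them, with their number in brackets and a bar at the median. Lists are ordered by median, from fibroblast markers at 2.11, replication-dependent histones at 1.85 and glycolytic enzymes at 1.76 to chromatin regulators at -0.77 and the iron list at -0.82.

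Metabolic and structural genes of the cytosol stood highest among the larger lists. The 14 glycolytic enzymes were all positive, with a median log2 ratio of 1.76 or 3.40 times the median member, and 1 was above, 0 were below and 13 neither. Hk2, a hexokinase, was the call at 2.83 (limma adjusted p = 0.036), lost without any of the 4 libraries. Gapdh had 1164 and 2031 RPKM in footprints and 132 and 581 in mRNA, a ratio of 1.70 (SE 0.85, adjusted p = 0.24). Pkm and Aldoa were lowest at 0.03 and 0.27. Over the alternatives tried the median of the list ran from 0.95 without mRNA replicate 1 to 2.11 without mRNA replicate 2.

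Actins, tubulins and cytoskeletal regulators gave 36 of 39 positive ratios and a median of 1.00, with 0 above and 0 below. Over the 34 whose mean reached 50 RPKM, centred on the median of all such genes, the list median was 0.55. Actb had 7166 and 16461 RPKM in footprints and 938 and 2849 in mRNA, and a log2 ratio of 1.96 (SE 0.71, limma adjusted p = 0.10). Actg1 led the list at 2.24, and Tpm4 was lowest at -0.43. Vim, the fibroblast's intermediate filament, stood at 1.74 (SE 1.03, adjusted p = 0.33).

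The 8 subunits of the chaperonin CCT, which folds actin and tubulin, had a median of 1.42, with Cct8 at 2.41 (limma adjusted p = 0.053) and Tcp1, which overlaps Acat3 and Mrpl18, at -0.62. Of them 0 were above and 0 below, and their median against genes whose mean reached 50 RPKM was 0.90. Proteasome subunits had a median of 0.92, with 3 above, 1 below and 29 neither of 33. Over the 30 whose mean reached 50 RPKM it was 0.43. Psma6 stood at 2.91 and Psmb5 at 2.70 (adjusted p = 0.035 and 0.042). Psmd7, a subunit of the lid, had 65.9 and 109.8 RPKM in footprints and 309 and 197 in mRNA, the reverse order, and a ratio of -2.31 (adjusted p = 0.031). Psma6 and Psmd7 were each lost without 3 of the 4 libraries, and Psmb5 without any.

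Of 30 respiratory chain and ATP synthase genes 28 were positive, with a median of 0.78, and Cox4i1 and Ndufa2 were above, at 2.34 and 2.07 (limma adjusted p = 0.043 and 0.0499), calls lost without any of the 4 libraries. Over the 26 members of that list whose mean reached 50 RPKM the median was 0.39. A further 29 genes of that list had footprints in both libraries but lacked a value in 1 mRNA library, and 17 lacked it in both. Heat shock proteins of the cytosol had 7 of 13 positive and a median of 0.38 that turned to -0.37 without mRNA replicate 2, with the constitutive Hspa8 at 0.85 (SE 0.49, limma adjusted p = 0.32). Mitochondrial ribosomal proteins had a median of -0.37 over 11 members, with 0 called. It was -0.97 without mRNA replicate 2, -0.64 without footprints replicate 2 and -1.25 over the 3 members whose mean reached 50 RPKM. Of those with footprints in both libraries a further 33 lacked a value in 1 mRNA library and 25 in both. The 6 sterol and fatty acid synthesis enzymes were all positive, with a median of 1.46 and 0 called, led by Fasn and Hmgcs1 at 1.61 and 1.58.

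The cell cycle genes that were called lay above the median. Ccnb1, the cyclin that activates Cdk1, had 127 and 86.6 RPKM in footprints and 7.85 and 8.66 in mRNA, a log2 ratio of 2.90 (SE 0.54, limma adjusted p = 0.0086), lost without either footprint library. Of 26 mitosis genes Cdk1 and Ccnb1 were above, 0 were below and 24 neither, with a median of 0.76 and Incenp lowest at -0.79. That median ran from 0.17 to 0.98 over the alternatives tried. Of 20 DNA replication genes 1 was above, 0 were below and 19 neither, with a median of 0.74. It was 0.34 over the 13 whose mean reached 50 RPKM. Pcna, the sliding clamp, was the call at 2.86 (adjusted p = 0.046), from 424 and 523 RPKM in footprints and 101 and 14.3 in mRNA, and its ratio ran from 1.28 to 4.46 without 1 library.

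Chromatin regulators had the lowest median of the lists with at least 10 members. Of 33 chromatin regulators 8 were positive, the median was -0.77 or 0.586 times the median member, and 0 were above, 2 below and 31 neither. Chd3, a remodeller of the NuRD complex, had 5.00 and 2.65 RPKM in footprints and 25 and 12.7 in mRNA, a log2 ratio of -3.06 (SE 0.71, limma adjusted p = 0.025). Smarce1, a subunit of the BAF remodeller, had 57.7 and 55.2 against 125 and 172 RPKM, a ratio of -2.15 (SE 0.48, adjusted p = 0.021). In both genes footprints and mRNA did not overlap. The median of the list stayed between -1.03 and -0.61 over the alternatives tried, and was also -0.77 over the 29 members that overlap no other coding gene. The call of Chd3 was lost without either footprint library or mRNA replicate 1 and that of Smarce1 without any of the 4 libraries.

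Splicing factors were spread, with 3 above, 1 below and 38 neither of 42 and a median of 0.43. Over the 35 whose mean reached 50 RPKM the median was 0.10. Ddx39b, an export helicase, and Srsf3 stood at 3.20 and 3.12 (limma adjusted p = 0.026 and 0.035), while another SR protein, Srsf4, stood at -2.62 (adjusted p = 0.045). Hnrnpk was the other one above, at 1.79. Without 1 library the calls of Srsf3, Srsf4 and Hnrnpk were lost in all 4 cases and that of Ddx39b in 3, with a ratio of 2.15 to 4.26. Ribosome biogenesis factors had a median of -0.05 over 32 members, with 0 above and 1 below, the snoRNP protein Nhp2 at -3.28, which overlaps Rmnd5b. H1f0, a linker histone with a polyadenylated message, was below at -2.33 (adjusted p = 0.024) among 8 replacement histones. The median of these was 0.67, and 1.27 without mRNA replicate 2. Nhp2 and H1f0 were each lost without 3 of the 4 libraries, with ratios of -4.39 to -2.21 and -2.87 to -1.77.

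Among mRNAs described with regulatory upstream reading frames, Ddit3, the transcription factor CHOP, stood far below. It had 15.2 and 7.12 RPKM in footprints and 84.2 and 133 in mRNA, with no overlap, from 4 and 36 footprint reads and 21 and 6 mRNA reads. Its log2 ratio was -4.12 (SE 0.58, limma adjusted p = 0.00081), or 0.0577 times the median member, and passed without any 1 library. The span of Ddit3 overlaps those of Mbd6 and Mars1 in the RefSeq table, and whether mRNA reads of these genes entered its count is not known. In cytosol treated for 0.5, 1, 2 and 4 h, over genes listed in all 20 cytosol libraries and centred on their median, its ratio was -0.20, 0.14, 1.48 and 0.91 against -4.25 in untreated cytosol.

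Atf4, the central transcription factor of the same response, had 196 and 120.0 RPKM in footprints and 50.3 and 107 in mRNA, a log2 ratio of 0.30 (SE 0.75, limma adjusted p = 0.86). Footprints exceeded both mRNA values, by little for the second. Atf5 had 40.7 and 37.3 in footprints and 14.3 and 184 in mRNA, a ratio of -1.17 with an SE of 1.20. Ifrd1 led the list at 1.11. Of 20 listed genes 8 were members, 0 were above, 1 was below and 7 were neither, with a median of -0.04. That median was 0.43 over the 6 that overlap no other coding gene, -0.70 over the 6 whose mean reached 20 RPKM, -1.39 over the 4 with at least 20 recovered reads per assay and -2.03 over the 4 whose mean reached 50 RPKM. Ppp1r15b, the constitutive relative of GADD34, and Slc35a4 lacked a value in footprints replicate 1 and mRNA replicate 1.

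Ferritin messages illustrate how far the mRNA libraries differ. Fth1, the heavy chain, had 134 and 85.7 RPKM in footprints and 29.6 and 796 in mRNA, so that the ratio was 1.13 in pair 1 and -3.73 in pair 2. Ftl1, the light chain, had 108 and 47.2 in footprints and 33.1 and 751 in mRNA, with 0.67 and -4.51. Neither was called, with log2 ratios of -1.29 (SE 1.71, limma adjusted p = 0.69) and -1.91 (SE 1.60, adjusted p = 0.50). The 5 members of the iron list had a median of -0.82, which was 0.91 without mRNA replicate 2. Odc1, the first enzyme of polyamine synthesis, and its partner Azin1 stood near the median at -0.27 and 0.35. Oaz1 and Amd1 lacked a value in 1 mRNA library each, as did Myc and Jun, and Mcl1 stood at 0.02. Malat1 and Gas5 have no row in the table.

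Histone messages that end in a stem-loop in place of a poly(A) tail were largely outside the members. Of 66 listed replication-dependent histones, 61 had a value in both footprint libraries, 46 in mRNA replicate 1 and 5 in mRNA replicate 2, so that 4 were members. Their summed mRNA was 9655 RPKM in replicate 1 and 138 in replicate 2, while their summed footprints were 27583 and 14158. Hist1h1b had 634 and 534 RPKM in footprints and 154 and 16.7 in mRNA. The 4 ratios were positive, with a median of 1.85 that was 0.87 in pair 1 and 2.70 in pair 2, and 0 were called. Without mRNA replicate 1 the median was 2.98 and without mRNA replicate 2 it was 0.69. Core histone copies are near-identical, so the split of their reads is uncertain.

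**Figure D4:**
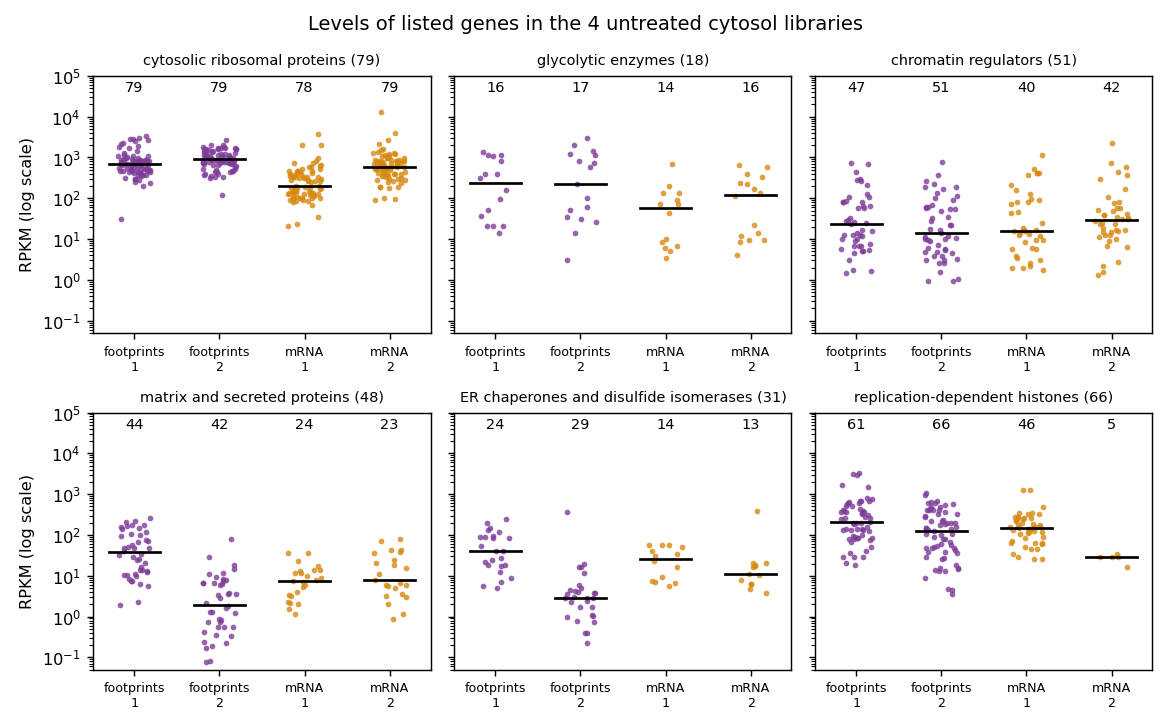
RPKM on a log axis of the genes of 6 lists in the 4 untreated cytosol libraries, each point a gene, the bar the median and the number above the genes with a value, with the size of the list in brackets. Matrix and ER chaperone genes are high in footprints replicate 1 and low in replicate 2, and stem-loop histones nearly vanish from mRNA replicate 2.

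Genes made at the ER divided the footprint libraries. Footprints of 42 matrix and secreted genes were 24.6 times as high in replicate 1 as in replicate 2 by the median gene, those of 26 receptors and transporters 15.4 times and those of 24 ER chaperones 11.1 times, against 1.18 times over all 6732 genes. The summed footprints of the matrix list were 2899 and 265 RPKM here and 29170 and 32957 in the untreated ER libraries. Genes with the deposited TRUE mark, which the table does not explain, held 5.96% and 4.55% of the footprint RPKM here and 29.7% and 33% in the ER.

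The ratios of these genes followed the library. Col1a1, a chain of type I collagen, had 209.8 and 7.83 RPKM in footprints and 2.33 and 7.70 in mRNA, with 5.45 in pair 1 and -0.49 in pair 2. Hspa5, the ER chaperone BiP, had 198 and 3.10 in footprints and 34 and 11.4 in mRNA, with 1.5 and -2.39. Of 18 matrix genes 0 were above and 0 below, with a median log2 ratio of -0.05, and of -2.16 without footprints replicate 1 and 1.82 without replicate 2. Receptors had a median of -0.63 over 7 members and chaperones of -0.38 over 7, with 0 called in each. Both medians were negative without footprints replicate 1, at -2.69 and -2.80, and positive without replicate 2, at 1.40 and 0.74, and that of the chaperones was 0.30 without mRNA replicate 1. Of the 7 chaperones 0 had a positive ratio. The fibroblast markers, with a median of 2.11 over 4 members and 0 called, hold 2 collagen genes of this kind, and their median was 1.01 without footprints replicate 1 and 3.11 without replicate 2. The part of material from the ER fraction in these values was not tested.

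The ER fraction of untreated cells gave ratios for 1473 of the genes. Matrix and secreted genes had a median log2 ratio of 0.02 in cytosol and 2.68 in the ER over 18 genes, receptors -0.53 and 2.43 over 6, and ER chaperones -0.34 and 0.98 over 6. Ribosomal proteins had 0.29 and 0.35 over 75 genes, glycolytic enzymes 1.89 and 1.81 over 11 and chromatin regulators -0.48 and -0.49 over 24. Each fraction was centred on its own median gene.

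No gene passed the test of the difference itself. The limma interaction of fraction and assay called 0 of 1473 genes above and 0 below (0% called), with 47 at an unadjusted p under 0.05, or 3.19%, and a median SE of 1.10. Cdsn came nearest at -5.80 (cytosol minus ER, SE 1.31, adjusted p = 0.25). Without cytosol footprints replicate 1 the test called 0 above and 12 below, without cytosol mRNA replicate 1 it called 2 above and 0 below, and with weights from recovered reads 0 above and 1 below. Hspa5 had 2.51 in the ER against -0.37 in cytosol, a difference of -2.92 with an SE of 2.21.

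**Figure D5:**
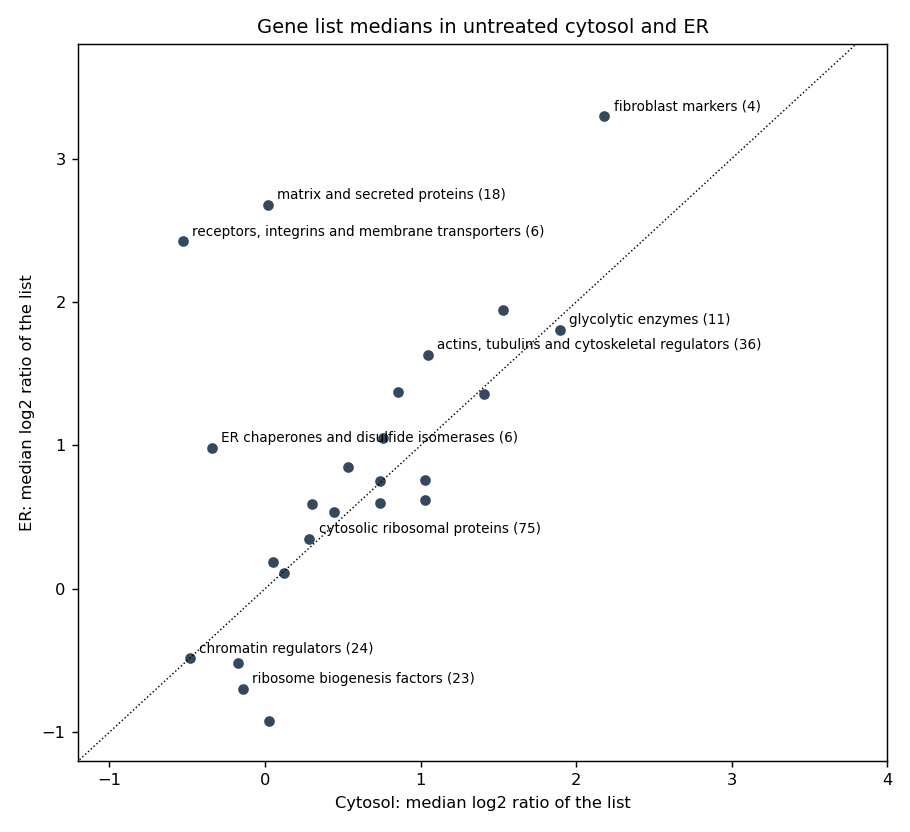
Median log2 footprint-to-mRNA ratio of each gene list in untreated cytosol (horizontal) and untreated ER (vertical), over genes with a value in all 8 libraries, with their number in brackets and each fraction centred on its own median gene. Most lists lie near the dotted line of equal values, and matrix genes, receptors and ER chaperones lie above it.

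Most called members lay on the same side in libraries that had no part in the untreated cytosol ratio, given here as a description. Of 39 members called above and listed in all untreated ER libraries, 38 lay above the median gene there, and of 63 called below, 61 lay below. Over genes listed in all 20 cytosol libraries, 32 of 35 called above and 34 of 36 called below stayed on their side at each of the 4 thapsigargin times. Those cytosol libraries helped to set the spread in the fit, but not the ratio. No same-side share over all genes stands beside these counts. Across the 1192 genes listed in all 20 cytosol libraries, Spearman correlations of untreated ratios with those at the 4 times were 0.70 to 0.74. Members far from the median could keep their side on that account. The members called above had a median of 2.44 in untreated cytosol and of 1.45 to 1.85 over the 4 times, and those called below -2.91 and -2.81 to -3.22. Members picked for untreated ratios far from the median tend to lie nearer to it elsewhere by that choice. No effect of treatment can therefore be read from these medians.

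Of the highest and lowest members named above, 7 had a value in all 20 cytosol libraries. Basp1 stood at -5.52 untreated and at -5.46 to -7.28 over the times, Acat3 at -5.26 and -3.70 to -5.92, and LOC674595 at -8.25 and -8.56 to -9.88. Tagln2 stood at 3.66 untreated and at 4.50 to 5.21. The other 3 stood nearer the median gene at each treated time than untreated: Cs at 3.30 untreated and 0.92 to 1.87, Cdk1 at 3.56 and 0.31 to 1.27, and Cdsn at -6.44 and -2.06 to -3.67. All 7 were picked by their untreated ratios, so no effect of treatment can be read from such shifts. In the untreated ER, Cdk1 had 2.06, Tagln2 3.15 and Cdsn -0.47. Overlap between genes, and reads shared by copies, would be the same in those libraries. Across 1473 genes the Spearman correlation of cytosol and ER ratios was 0.75, as a description.

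List medians at the thapsigargin times are set beside the untreated ones without a test. Over the genes of each list with a value in all 20 cytosol libraries, glycolytic enzymes had medians of 1.69 untreated and of 2.12, 1.84, 2.14 and 1.73 at 0.5, 1, 2 and 4 h, over 9 genes. Chromatin regulators had -0.64 untreated and -1.09, -0.73, -0.85 and -0.75, over 20 genes. Ribosomal proteins had 0.05 untreated and -0.17, 0.09, 0.01 and 0.03, over 74 genes. The 8 CCT subunits stood at 1.29 untreated and at 0.57 to 0.82 at the 4 times. The 4 members with upstream reading frames stood at -0.91 untreated and at 0.91, 0.69, 1.88 and 2.03.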

How the data were processed

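The authors deposited 1 table of RPKM values, per the file headers with 1 column for each assay, fraction, time and replicate. The unit was read from the values, which are whole reads times 1 factor per library divided by the coding length. The submitters' processing notes name Bowtie and the build hg19, a human build, for these mouse genes. No step beyond these is given in the sources used here, and strand use in counting is not stated. A gene without a value is blank. The fewest recovered reads behind a value are 4 in both footprint libraries and mRNA replicate 1, and 1 in mRNA replicate 2. Column 16 of the table (ER footprints, 0.5 h, replicate 2) is empty.

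Ratios were fitted with limma 3.58.1 (R 4.3.3) on log2(RPKM) without a pseudocount, with a mean-variance trend and no robust moderation, with each library centred on the median of members listed in all cytosol libraries. The 20 cytosol libraries formed 10 groups that share 1 spread per gene; untreated footprints minus untreated mRNA was centred on the median member and tested 2-sided with Benjamini-Hochberg adjustment at 0.05. The ER difference used all 39 libraries. The method was tested on simulated data. Overlap between genes, synonyms and start sequences came from RefSeq tables of GRCm38.p6, matching 2539 and 2091 members, and give neighbours only.

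Members and gene lists were chosen with earlier results of these data known. Named were the 10 highest and 10 lowest called members with both pairs on 1 side, the 2 highest and 2 lowest of a list where described, and a set of fixed genes. Smarce1, Psmb5, Cox4i1, Ndufa2, Hnrnpk, Rps15a and Rps15a-ps5, and genes that mark an overlap or a shared copy, were named after their values were seen. One gene that the rule names is not reported here. Genes whose values equal those of another gene were left out of the naming. Alternatives changed the pseudocount, level and read filters, centring, moderation, weights, libraries and the replicate block.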

Additional observations from a re-analysis of the deposited data

How the results depend on the processing

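Counts are given as members above and below the median. They were 82 and 79 in the fit reported, 107 and 99 with pseudocount 1, 85 and 81 with trimmed mean centring and 76 and 75 with robust moderation. They were 52 and 80 of 1777 genes whose mean reached 20 RPKM, 22 and 48 of 1075 whose mean reached 50 RPKM, 42 and 61 of 1244 with at least 20 recovered reads per assay, and 41 and 52 with array weights. The fit of untreated libraries alone gave 0 and 18. Chosen after seeing the data, weights from recovered reads gave 115 and 132, and leaving out genes that overlap another coding gene 23 and 25 of 1980. Leaving out 1 untreated library gave 3 to 27 above and 26 to 44 below. The replicate block gave 201 above and 164 below; the deviations of same-numbered footprints and mRNA correlated at 0.28 in untreated cytosol and at -0.01 to 0.17 at the other times, over genes listed in all cytosol libraries, and the labels name no shared origin. For cytosol minus ER, 0 and 0 were called in each fit with all libraries and with the block, except 1 below with weights from recovered reads, and leaving out 1 library gave 0 to 2 above and 0 to 12 below. Named genes that were called kept their call in 491 of 733 refits and 0 changed sign. Depth limits the mRNA side most: a median of 3 reads per member in replicate 2.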

Other observations

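Groups picked by gene name after their values were seen are given as a description only and were not tested. Over all members 3.01% were above and 2.90% below. Members with Zfp names, which encode zinc finger proteins, numbered 18 and had a median log2 ratio of -1.21, with 0 above, 4 below (Zfp91, Zfp422, Zfp335 and Zfp277) and 3 of 18 positive. Over the 14 that overlap no other coding gene the median was -1.34, and it was -0.98 in pair 1 and -1.45 in pair 2. Small GTPases, molecular switches of signalling and vesicle transport, gave 16 of 22 positive ratios and a median of 1.5. It was 1.21 in pair 1 and 1.03 in pair 2. Arf1, Cdc42, Rac1 and Ran were above and 0 were below. The 4 S100 members, small calcium-binding proteins, lay between 2.72 and 3.04, with S100a6 and S100a10 above. The 7 annexins, which bind membranes with calcium, were all positive, with a median of 1.45 and Anxa3 above at 2.70. The calls of Arf1, Cdc42, Rac1, Ran, S100a6, S100a10 and Anxa3 were lost without any of the 4 libraries, those of Zfp91 and Zfp335 without 3 of them and that of Zfp422 without 2, and Zfp277 passed in each case.

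Genes with the TRUE mark of the deposited table had a median of -0.59 over 144 members, with 3 above and 5 below, and the others 0.03 over 2581. Of the 79 members below the median, 49 had at most 10 reads in footprints replicate 1, against 470 of 2725 members in all.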
